A study of Mus musculus with 6 samples.

Results

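Pdzk1ip1 is a gene on mouse chromosome 4 that lies beside Tal1, and its messenger RNA was higher in fetal livers of the Gata1 knockout than in wild-type livers. Pdzk1ip1 and 4 listed genes of the same chromosome, Stil, Cmpk1, Foxd2 and Pik3r3, were taken by gene name from the deposited table, 5 of 26014 genes, each with 1 row. The genes were chosen on the FPKM of Pdzk1ip1, which was higher in the knockout, so the difference of Pdzk1ip1 is given as a description with no test. The question is whether its neighbours moved with it. Of the 5 genes, 3 had a mean of at least 1 FPKM and could be tested, and Foxd2 and Pik3r3 did not reach that level.

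The knockout libraries (KO) came from embryos labelled as knockout for the 3′ UTR of Gata1, the part of the messenger after the stop codon. The wild-type libraries (WT) came from wild-type embryos. Both groups hold 3 libraries of untreated fetal liver at embryonic day 14.5. No further allele or agent is named for either group. The sources used here give neither the extent of the deletion, nor the strain, nor how many embryos made up a library. P-values therefore measure the spread between these libraries, which may be technical. The authors deposited FPKM, a level scaled to exon length and to library depth. Whole-fragment steps among low values gave depths near 15600000 to 16100000 fragments in KO libraries and 14800000 to 16200000 in WT libraries.

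PDZK1IP1, also called MAP17, is a small membrane protein best known from the proximal tubule of the kidney, where it binds the PDZ scaffold protein PDZK1. In mouse blood its expression marks stem cells. TAL1 is a transcription factor of blood formation that works in a complex with GATA1 and LMO2. In the mouse, an enhancer active in blood stem cells lies between Tal1 and Pdzk1ip1, and an erythroid enhancer lies beyond Pdzk1ip1. The human counterparts of Stil and Tal1 are joined by a deletion in some T cell leukaemias, which is how Stil was found.

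The genes are packed closely. On GRCm38, Foxd2 lies at 114906282 to 114908873 on the minus strand, Cmpk1 at 114959336 to 114987241 on the minus strand and Stil at 115000159 to 115043196 on the plus strand. Tal1 follows at 115056426 to 115071755 and Pdzk1ip1 at 115088708 to 115093899, both on the plus strand. Between Tal1 and Pdzk1ip1 lie 16952 bases with no listed gene, and 12423 bases separate Pdzk1ip1 from Cyp4x1 on its other side. Pik3r3, at 116221618 to 116303056, starts 1133 kb away, beyond many genes that are nearer.

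The sequence at each start of transcription was searched for known motifs. RefSeq windows on GRCm38.p6, from 250 bases before to 50 bases after each gene's start, were searched on both strands for 3 motifs. These were the GATA motif, the CACCC box bound by Krüppel-like factors, and the CCAAT box. The GATA motif was counted as AGATAA, or the same with a last base G as in AGATAG, or with a first base T as in TGATAA, or with both changes as in TGATAG. The stretches below are 30 bases long on the plus strand, 5′ to 3′, with the match in capitals. They show the CACCC match of Pdzk1ip1, the GATA match of Tal1 (the reverse complement of AGATAA) and the CCAAT match of Stil nearest its start.
Pdzk1ip1, chr4:115088688-115088717: ttcaagaagcccCACCCactgggctcattc
Tal1, chr4:115056209-115056238: ctatagagtcttTTATCTttgagcaattcc
Stil, chr4:115000091-115000120: ccgggcttctggCCAATcagcaggcgcggc
The Pdzk1ip1 match begins 8 bases before its start, that of Tal1 205 bases and that of Stil 15 bases before their RefSeq starts. Pdzk1ip1 held 1 CACCC match and 0 GATA matches in its window, and Stil held 3 CCAAT matches. The CACCC box was shared: the first Tal1 window held 1, the Foxd2 window 2, and each of the 3 Pik3r3 windows 1 or 2, with 2 CCAAT matches in the first. Cmpk1 held none of the 3 motifs. Of 32851 windows of this length, 57.5% held CACCC, 29.8% a GATA form and 37.4% CCAAT. No match says only that these letters are not in this window, and the window does not reach the enhancers.

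Pdzk1ip1 stood at 26.7, 24.4 and 26.1 FPKM in the 3 KO libraries, against 10.7, 8.98 and 9.06 FPKM in the WT libraries. All KO libraries were higher than all WT libraries, and libraries of 1 genotype lay close together. The mean was 25.7 ± 1.23 FPKM in KO and 9.57 ± 0.945 FPKM in WT (SD, n = 3 each), a ratio of 2.69. On the log2(FPKM + 1) scale, which understates changes of low genes, the difference was 1.34, the 23rd highest of 11142 tested genes. These values rest on about 680 to 767 fragments per KO library and 257 to 281 per WT library. In bulk tissue, a larger share of cells that make this messenger and more messenger per cell cannot be told apart.

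Tal1, the nearest gene that could be tested, had the highest level of the genes described here around Pdzk1ip1. Its level was 223.9, 216.2 and 227.8 FPKM in KO, against 186.2, 177.5 and 202.8 FPKM in WT. The KO libraries were all higher than the WT libraries, but the step was small, with a ratio of means of 1.18. The log2 difference was 0.24 with a 95% interval of 0.09 to 0.38, which missed the threshold (limma, adjusted p = 0.0582). The call depends on the choice of libraries: without WT replicate 3 the difference was 0.29 and passed (limma, adjusted p = 0.0467). With median-of-ratios scaling it was 0.12 (limma, adjusted p = 0.547).

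Stil encodes a protein needed to build new centrioles. It had 13.5, 13.2 and 13.9 FPKM in KO libraries, against 14.01, 14.5 and 17.2 FPKM in WT libraries. The KO libraries were all slightly lower, the opposite side from Pdzk1ip1, and WT replicate 3 stood above the rest. The log2 difference was -0.15 with a 95% interval of -0.35 to 0.04 and did not pass (limma, adjusted p = 0.267). It was -0.07 without WT replicate 3 and -0.04 with TPM scaling.

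Cmpk1 encodes the kinase that phosphorylates UMP and CMP. Its level was 22.9, 21.6 and 22.7 FPKM in KO, against 18.4, 24.1 and 21.6 FPKM in WT. The groups overlapped, with the lowest and the highest value both in WT. The log2 difference was 0.07 with a 95% interval of -0.16 to 0.30 (limma, adjusted p = 0.653), and it turned to -0.04 with median-of-ratios scaling and to -0.03 without WT replicate 1.

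**Figure D1:**
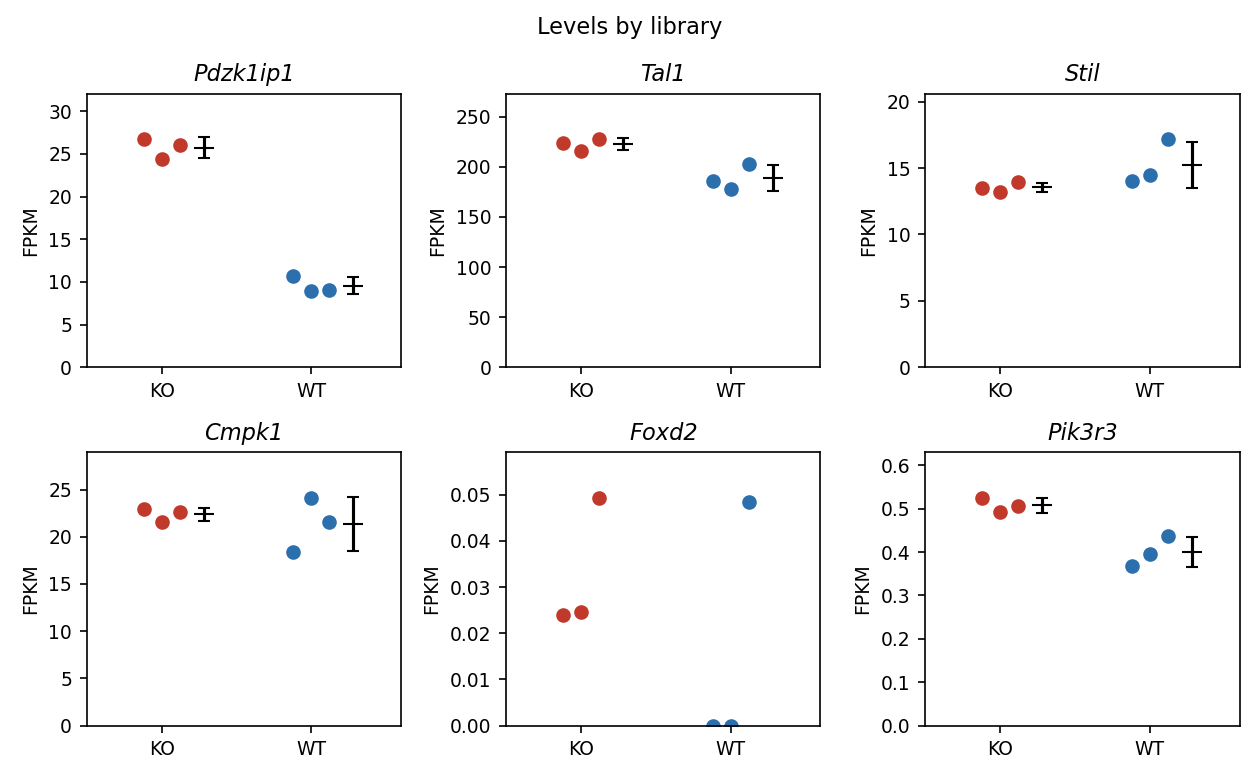
FPKM of Pdzk1ip1, Tal1, Stil, Cmpk1, Foxd2 and Pik3r3 in each library (points), KO left and WT right, each panel with its own axis from 0; bars are the mean and SD of 3 libraries, omitted for Foxd2, which rests on 0 to 2 fragments. Pdzk1ip1 shows the wide gap, at 24.4 to 26.7 FPKM in KO and 8.98 to 10.7 FPKM in WT.

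Foxd2, a forkhead transcription factor gene, was close to silent. It was listed at 0.0239, 0.0245 and 0.0493 FPKM in KO, and in WT at 0 in replicates 1 and 2 and at 0.0484 FPKM in replicate 3. That is 1 to 2 fragments per KO library and 0 to 2 per WT library, so no fold is given. For scale, 3 fragments over 1 kb equal 0.186 to 0.192 FPKM in KO libraries and 0.185 to 0.203 FPKM in WT libraries, a floor that covers counting error only.

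Pik3r3 encodes a regulatory subunit of phosphatidylinositol 3-kinase. It had 0.526, 0.492 and 0.507 FPKM in KO, against 0.369, 0.396 and 0.438 FPKM in WT. All KO libraries lay above all WT libraries, on 41 to 45 fragments per KO library and 29 to 37 per WT library. The gene was under the filter on low values, and with no filter its log2 difference was 0.11 (limma, adjusted p = 0.438).

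Pdzk1ip1 took a different place in the order of levels in the 2 genotypes. In KO the mean FPKM, a level per length of exon, ran Tal1 (222.6), Pdzk1ip1 (25.7), Cmpk1 (22.4), Stil (13.6), Pik3r3 (0.508). In WT it ran Tal1 (188.8), Cmpk1 (21.4), Stil (15.2), Pdzk1ip1 (9.57), Pik3r3 (0.401). No 2 neighbours in either order overlapped in their libraries. Foxd2 came last in each library.

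A ratio of 2 genes within a library does not depend on how libraries are scaled. Pdzk1ip1 stood at 11.9%, 11.3% and 11.4% of the Tal1 level in KO libraries, against 5.72%, 5.06% and 4.47% in WT libraries. Relative to Cmpk1 it was 116.8%, 112.8% and 115.1% in KO, against 58.0%, 37.2% and 42.0% in WT. Relative to Stil it averaged 189.8% ± 7.27 in KO and 63.7% ± 11.7 in WT (SD, n = 3 each). The groups did not overlap in any of these ratios, which carry the choice of Pdzk1ip1 and have no test.

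Ratios among the neighbours do not carry the choice of Pdzk1ip1. Tal1 stood at 1643% ± 13.3 of the Stil level in KO and 1246% ± 75.8 in WT (SD, n = 3 each), a log2 difference of 0.40 in the ratio, with no overlap between the groups. The exact permutation test, two-sided, gave p = 0.1, the smallest that 3 against 3 libraries allow, so it can show neither a change nor stability. For Tal1 over Cmpk1 the log2 difference was 0.16 (exact permutation, p = 0.4) and for Stil over Cmpk1 -0.24 (exact permutation, p = 0.3).

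**Figure D2:**
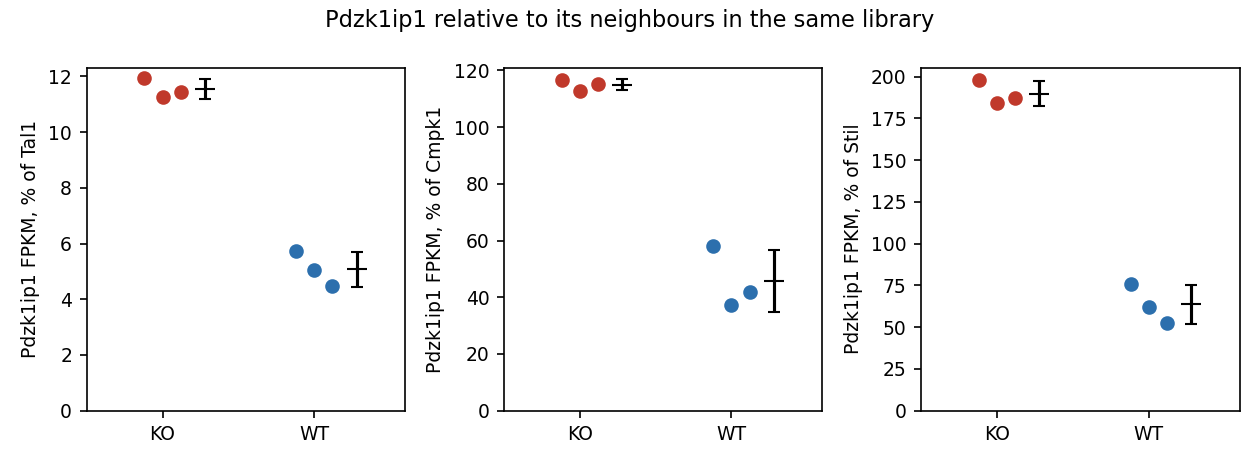
Pdzk1ip1 FPKM as a percentage of Tal1, Cmpk1 and Stil FPKM in the same library (points; KO left, WT right), with mean and SD of 3 libraries. Relative to Tal1 the KO libraries sit at 11.3% to 11.9% and the WT libraries at 4.47% to 5.72%.

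To widen the view beyond the listed genes, all genes that start within 1.5 Mb of Pdzk1ip1 were taken by position alone. Of 38 such genes other than Pdzk1ip1, 18 could be tested, only 4 of them within 0.5 Mb (Tal1, Stil, Cmpk1 and the pseudogene Cyp4b1-ps2). Of the 18, 0 passed as higher and 0 as lower (limma, adjusted p under 0.05). Among all 11142 tested genes 5.93% were higher and 3.62% lower, together 9.55%. That split depended on scaling, with 777 higher and 134 lower under TPM scaling and 219 higher and 449 lower under median-of-ratios scaling, against 661 and 403 as deposited. At an unadjusted p under 0.05, 5 of the 18 were higher and 0 lower, against 21.2% and 7.52% of all tested genes. The 5 were Tal1, Atpaf1, Mob3c, Mknk1 and Gm12854. With voom on recovered fragments 1 of the 18 was higher, Tal1, against 7.69% of all genes. The 18 log2 differences ran from -0.33 to 0.41 with a median of 0.09, the same to that precision as the median of all tested genes, and 14 were positive, as were 71.4% of all tested genes.

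Libraries did not overlap, with KO above WT, for 6 of the 18, against 26.8% of all tested genes. KO lay below WT for 1, Stil, against 8.8%. The 6 were Tal1 and 5 genes 696 to 979 kb away: Atpaf1, Mob3c, Mknk1, Nsun4 and Gm12854. Mob3c, a member of the MOB family of kinase activators, had the largest difference of the window apart from Pdzk1ip1. Its log2 difference was 0.41, with means of 7.36 ± 1.504 FPKM in KO and 5.22 ± 0.451 FPKM in WT (SD, n = 3 each; limma, adjusted p = 0.0957). Mknk1, a kinase that phosphorylates the translation factor eIF4E, had 26.3 ± 0.547 FPKM in KO and 23.4 ± 0.423 FPKM in WT, a log2 difference of 0.16 (limma, adjusted p = 0.0745).

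The nearest gene to pass the test was Artn, a growth factor of the GDNF family, 2837 kb away. It fell to 1.29 ± 0.108 FPKM in KO, against 3.85 ± 0.767 FPKM in WT (SD, n = 3 each; limma, adjusted p = 0.0077). On the whole of chromosome 4, leaving out Pdzk1ip1, 44 of 712 tested genes rose and 25 fell, 6.18% and 3.51%, close to the shares over all genes.

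**Figure D3:**
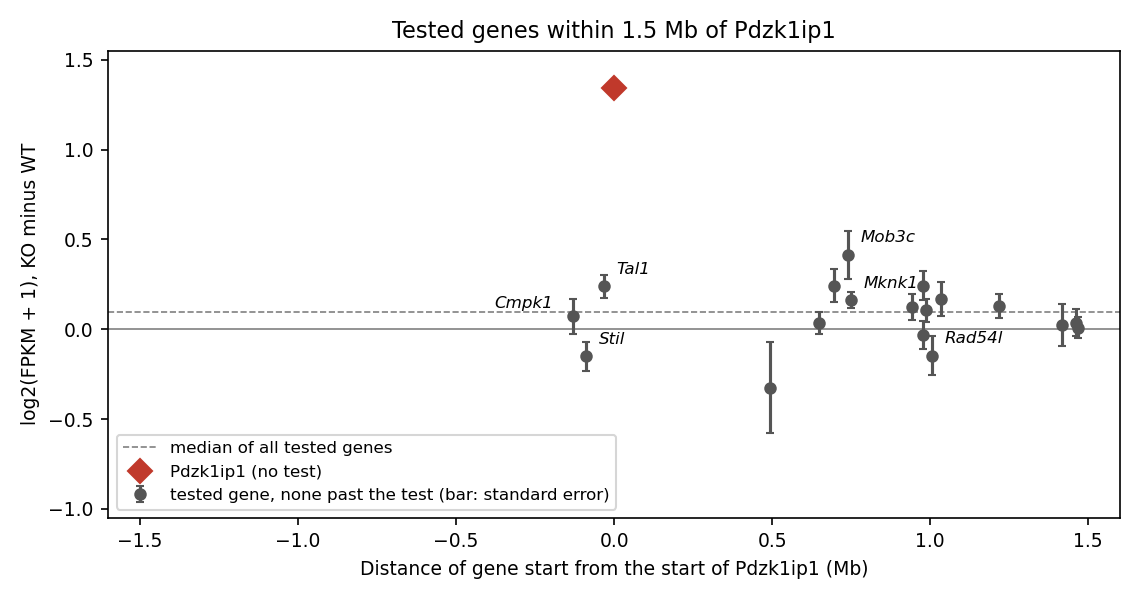
Log2 difference (KO minus WT, log2 of FPKM + 1) against the distance of the gene start from that of Pdzk1ip1 in Mb, for the 18 tested genes of the window (grey, bars are standard errors) and Pdzk1ip1 (red diamond, no test); the dashed line is the median of all tested genes. Pdzk1ip1 stands at 1.34 and the other genes between -0.33 and 0.41.

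The untested genes nearest Pdzk1ip1 were low. Cyp4x1, a cytochrome P450 gene, had 0.107 to 0.167 FPKM in KO and 0.145 to 0.162 FPKM in WT, with overlapping groups. Cyp4x1os, the antisense transcript that overlaps the start of Cyp4x1, had 0.587, 0.381 and 0.160 FPKM in KO, against 0.168, 0.0924 and 0.0313 FPKM in WT. Those values rest on 5 to 19 and 1 to 5 fragments per library, and the groups overlapped. Whether strand was used in counting is not given, so fragments from the stretch that both genes share cannot be assigned. Foxd2os, the noncoding gene beside Foxd2, had 0.288, 0.217 and 0.337 FPKM in KO, against 0.188, 0.0574 and 0.156 FPKM in WT, on 11 to 17 and 3 to 9 fragments. With no filter, neither passed the test (limma, adjusted p = 0.277 for Cyp4x1os and 0.237 for Foxd2os). Gm24045, with 98 bases of exon, rested on 1 to 3 fragments per library, and the pseudogene Cyp4a28-ps on 0 to 2.

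The genes whose profile was nearest in shape and size to that of Pdzk1ip1 lay on other chromosomes. So did most tested genes: besides Pdzk1ip1, only 712 of 11141 lay on chromosome 4. Likeness was the root-mean-square difference between log2(FPKM + 1) profiles over the 6 libraries, each centred on its own mean, and it is a description with no test. The 5 nearest of the tested genes were Wnk4, Homer2, Car1, Lgals1 and Usp44, at 0.09 to 0.17 log2 units, on 5 other chromosomes. Wnk4, a kinase that regulates ion transport in the kidney, had 15.6, 13.7 and 14.3 FPKM in KO, against 5.27, 4.83 and 5.70 FPKM in WT. Car1, which encodes a carbonic anhydrase, had 61.1, 53.9 and 68.6 FPKM in KO, against 27.9, 26.2 and 25.9 FPKM in WT. Homer2, a scaffold protein gene, averaged 3.08 FPKM in KO and 0.390 FPKM in WT, so it passed the filter only through KO. Its log2 difference was 1.552 with a pseudocount of 1 and 2.70 with 0.1, where Pdzk1ip1 had 1.42, so its likeness in size rests on the pseudocount. Lgals1, which encodes galectin-1, averaged 981.0 FPKM in KO and 439.6 FPKM in WT, and Usp44, a deubiquitinase gene, 5.43 FPKM in KO and 1.91 FPKM in WT. Ranked by the same measure, Mob3c came 577th, Tal1 1656th, Cmpk1 6545th and Stil 9654th. Genes with a large rise of like size rank first by construction. Pearson's r, which ignores size, was 0.977 with Pdzk1ip1 for the window gene Mknk1 and 0.973 for Usp44, over 6 libraries that fall into the 2 genotypes.

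**Figure D4:**
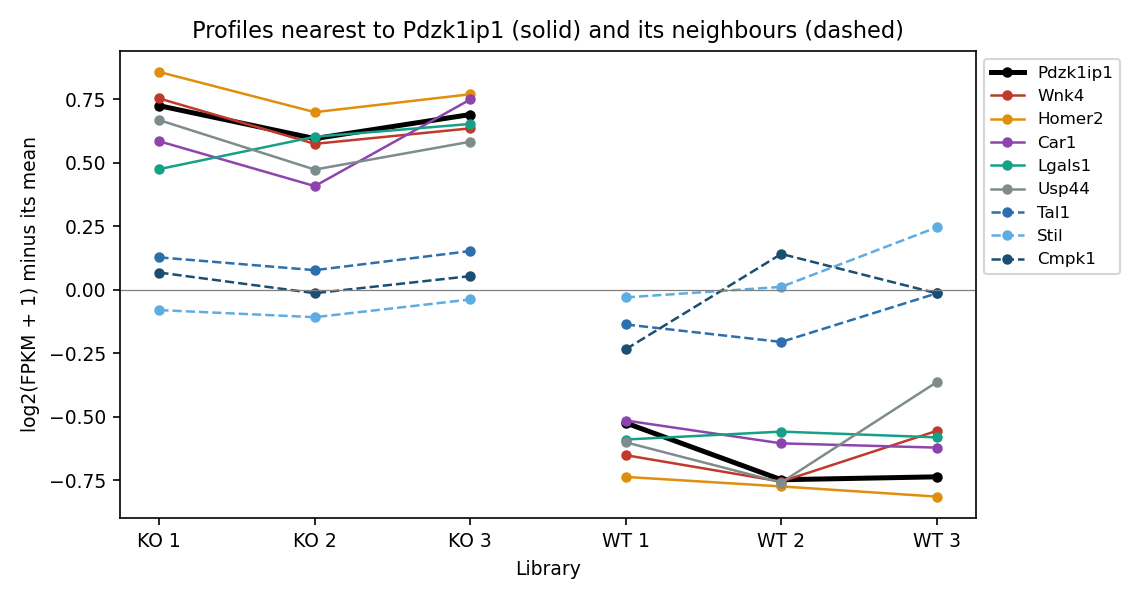
Log2(FPKM + 1) minus each gene's mean over the 6 libraries, KO libraries left and WT libraries right, for Pdzk1ip1 (black), the 5 genes of most similar profile (solid) and Tal1, Stil and Cmpk1 (dashed). The 5 similar genes differ by 1.15 to 1.552 between KO and WT, and the dashed genes by -0.15 to 0.24.

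Pathway partners of the listed genes were then counted. Of 8 genes for PDZ scaffolds and transporters tied to PDZK1IP1, 7 were in the table, and only Slc9a3r1 and Slc9a3r2 could be tested. Slc9a3r1, the scaffold NHERF1, had 30.3, 31.9 and 26.0 FPKM in KO, against 24.2, 25.1 and 19.0 FPKM in WT, and did not pass (limma, adjusted p = 0.105). Slc9a3r2 had 2.58, 2.54 and 1.79 FPKM in KO, against 1.82, 1.58 and 1.36 FPKM in WT (limma, adjusted p = 0.14). Both had an unadjusted p under 0.05, as had 21.2% of all tested genes in that direction, and voom passed 0 of them. Pdzk1 itself had 0.162 to 0.340 FPKM in KO and 0.123 to 0.364 FPKM in WT, and Slc5a2, the glucose transporter SGLT2 that human PDZK1IP1 activates, 0.107 to 0.199 FPKM in KO and 0.234 to 0.346 FPKM in WT.

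Of 9 centriole duplication genes, 0 passed in either direction (limma), and 0 by voom. At an unadjusted p under 0.05, 2 were lower, against 7.52% of all tested genes, and 0 higher. The median log2 difference was -0.12, against 0.09 for all tested genes. Sass6, the cartwheel protein of the new centriole, had 3.34, 3.26 and 3.42 FPKM in KO, against 4.11, 4.06 and 4.02 FPKM in WT. The libraries did not overlap, and the difference of -0.22 did not pass (limma, adjusted p = 0.0738; 0.047 with median-of-ratios scaling). Cep135, also a centriole protein, had a log2 difference of -0.29 (limma, adjusted p = 0.0891).

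Of 18 tested genes of pyrimidine nucleotide synthesis, 0 passed (limma), and voom passed 1 higher and 2 lower, against 7.69% and 4.14% of all genes. At an unadjusted p under 0.05, 5 were higher and 2 lower, against 21.2% and 7.52% of all tested genes. The median log2 difference was 0.13. Rrm2, a subunit of ribonucleotide reductase, averaged 219.5 ± 26.2 FPKM in KO and 288.7 ± 19.6 FPKM in WT (SD, n = 3 each; limma, adjusted p = 0.0525), and Cad, which starts the pathway, 34.6 ± 0.708 FPKM in KO and 29.7 ± 1.65 FPKM in WT (limma, adjusted p = 0.0595). Dck, deoxycytidine kinase, had a log2 difference of -0.41 (limma, adjusted p = 0.0669). Dck passed without WT replicate 1 (limma, adjusted p = 0.0393) and Rrm2 with median-of-ratios scaling (limma, adjusted p = 0.0471). Of 14 alternative runs, Rrm2 passed in 5, Dck in 4 and Cad in 3. With the filter at a mean FPKM of 5, 1 of 15 tested genes was higher and 2 were lower.

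Of 11 tested genes of class I phosphatidylinositol 3-kinase and its opposing phosphatases, 1 fell and 0 rose, against 3.62% and 5.93% of all tested genes. This was Pik3r1, the main regulatory subunit and a relative of Pik3r3, at 10.4, 9.90 and 11.3 FPKM in KO, against 14.5, 14.7 and 14.1 FPKM in WT. The log2 difference was -0.42 with a 95% interval of -0.57 to -0.27 (limma, adjusted p = 0.0139). The call was lost without KO replicate 1 (limma, adjusted p = 0.0727), without KO replicate 2 (0.0697) and with TPM scaling (0.101). Of the forkhead D and E list none could be tested: 4 of 6 genes were in the table, together at 0.244 to 0.390 FPKM in KO libraries and 0.0837 to 0.241 FPKM in WT libraries, most of it Foxd2os.

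The FPKM of Gata1, the targeted gene, fell to 45.1% of its WT level (limma, adjusted p = 0.000638). It ran from 67.2 to 68.2 FPKM in KO and from 141.8 to 165.8 FPKM in WT. FPKM divides by the full exon length, and the extent of the deletion is not known. Fewer messengers and messengers that lack deleted bases therefore cannot be told apart in this value. The labels call the cells embryonic hepatocytes, yet red cell genes dominated: Hbb-bs, an adult beta globin, had 35956 to 38179 FPKM in KO and 47463 to 54348 FPKM in WT, and Alb, albumin, 392.9 to 523.1 FPKM in KO and 148.6 to 963.7 FPKM in WT.

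Most megakaryocyte markers were higher in KO, as Pdzk1ip1 was, and most erythroid markers lower. The part of these markers in the Pdzk1ip1 difference was not tested. The groups overlapped for the platelet marker Ppbp, with means of 82.7 FPKM in KO and 83.6 FPKM in WT. They also overlapped for the erythroid marker Epor, with 164.1 FPKM in KO and 173.2 FPKM in WT. Of 13 megakaryocyte and platelet markers 9 rose and 0 fell (limma), against 5.93% and 3.62% of all tested genes. At an unadjusted p under 0.05, 12 were higher, against 21.2% of all tested genes. The summed levels were 908.7, 747.9 and 504.3 FPKM in KO and 390.6, 463.1 and 241.0 FPKM in WT. No marker was at 0 in all libraries. The number that rose was 0 with no filter on low values, 0 without KO replicate 1, without KO replicate 2 or without WT replicate 3, and 3 without WT replicate 1. In the 4 runs that gave 0, the number higher over all genes also fell, from 661 to 267, 97, 62 and 220. The remaining runs gave 7 to 12 markers, with 7 under median-of-ratios scaling and 12 with the replicate block. Within KO the marker sum was lowest in replicate 3, where Pdzk1ip1 had 26.1 FPKM, and Pdzk1ip1 was lowest in replicate 2. Pdzk1ip1 spanned only 0.13 log2 units among the KO libraries, so its order there cannot tell what part these markers had. Of 9 tested erythroid markers 7 fell and 0 rose, against 3.62% and 5.93% of all tested genes. Their sums were 70465 to 78143 FPKM in KO and 89676 to 102418 FPKM in WT. Leaving out WT replicate 2 gave a count of 6 that fell, leaving out any other library brought it to between 1 and 3, and TPM scaling to 0. It was 2 with no filter on low values, 4 with median-of-ratios scaling and 6 to 8 in the remaining runs.

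Of 10 stem cell markers 5 could be tested and 0 passed (limma), and 0 by voom; with TPM scaling 1 passed as higher. At an unadjusted p under 0.05, Meis1 and Esam were higher, 2 of 5 against 21.2% of all tested genes. The sum was 28.97 to 34.2 FPKM in KO and 23.2 to 29.4 FPKM in WT. Meis1 averaged 1.89 FPKM in KO and 1.01 FPKM in WT, and Esam 4.73 FPKM in KO and 2.66 FPKM in WT. All 5 tested markers had a positive log2 difference, as had 71.4% of all tested genes. Of the untested markers, Procr, Mecom and Hlf had 0.213 to 0.313, 0.077 to 0.164 and 0.680 to 1.18 FPKM in KO. In WT these 3 had 0.154 to 0.365, 0.111 to 0.129 and 0.676 to 1.09 FPKM. Of 9 tested hepatoblast, 9 macrophage and 6 endothelial markers none passed (limma), and 0 by voom. The log2 difference was positive for 9 hepatoblast, 0 macrophage and 5 endothelial markers, against 71.4% of all tested genes. At an unadjusted p under 0.05, 1 endothelial gene, Kdr, was higher, against 21.2% of all tested genes. Hepatoblast sums were 999.4 to 1389 FPKM in KO and 393.1 to 2275 FPKM in WT, so they varied more among WT libraries than between groups. Macrophage sums were 79.4 to 145.8 FPKM in KO and 84.2 to 169.2 FPKM in WT, and endothelial sums 15.9 to 23.6 FPKM in KO and 9.77 to 25.4 FPKM in WT.

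**Figure D5:**
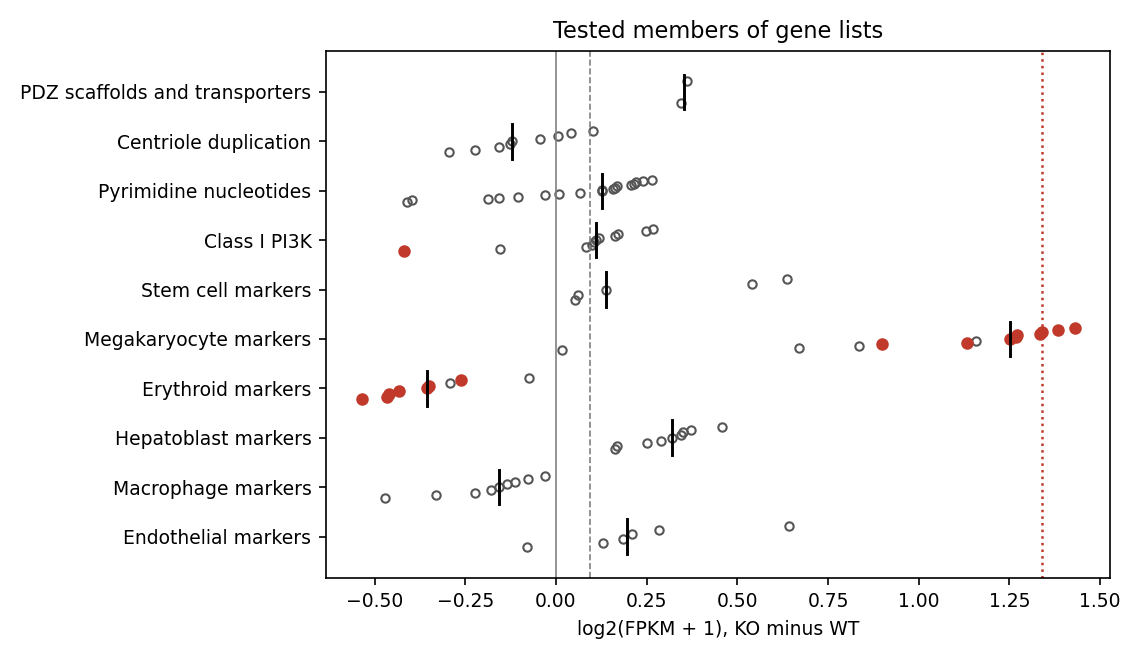
Log2 difference (KO minus WT, log2 of FPKM + 1) of each tested member of the gene lists; filled points passed the test (limma, adjusted p under 0.05), vertical bars are list medians, the dashed line is the median of all tested genes and the dotted line marks Pdzk1ip1 at 1.34. Megakaryocyte markers reach the value of Pdzk1ip1, with a median of 1.252, and the erythroid median is -0.35.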

How the data were processed

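Per the labels' protocols, total RNA was read in pairs of 150 bases. The authors deposited FPKM values for 6 libraries in 1 table; the aligner, counting program, build and strand use were not given in the sources used here. GENCODE M21 holds 99.7% of the 26014 gene IDs, and 23618 entries share its positions, so coordinates are taken as GRCm38. Of 26022 lines, 7 held spilled annotation and 1 was empty. With merged exon lengths, 94.2% to 94.7% of low values per library were whole fragments within 0.02, which gave the depths.

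limma 3.58.1 in R 4.3.3 (lmFit, eBayes with trend) was run on log2(FPKM + 1), two-sided, over the 11142 genes averaging 1 FPKM or more, group only, with Benjamini-Hochberg adjustment and a threshold of 0.05. The 95% intervals are not adjusted for the number of genes. The script was tested on simulated data. Members, lists and tests were chosen with earlier results of these data known. Named genes were the members, Gata1, Tal1, genes within 250 kb, up to 4 per list by smallest p, and the 5 most alike; Atpaf1, Mob3c, Mknk1, Nsun4, Gm12854, Artn and the markers were named after their values were seen. The settings varied were the pseudocount (0.1), the filter (none, or a mean of 5), 2 scalings, a robust prior, a replicate block, each library left out, other windows and, added after the data were seen, voom on recovered fragments. Python 3.11.15 with pandas 2.3.3, scipy 1.17.1 and matplotlib 3.10.9 did the rest.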

Additional observations from a re-analysis of the deposited data

How the results depend on the processing

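Pdzk1ip1 was chosen for its difference and its groups lay far apart, so its positive sign in every alternative run is no support. The Pdzk1ip1 difference was 1.30 to 1.41 with a library left out, 1.46 with TPM scaling and 1.23 with median-of-ratios scaling. These scalings move the median of all genes from 0.09 to 0.20 and -0.01; relative to that median Pdzk1ip1 stood at 1.247 as deposited, 1.26 with TPM and 1.24 with median-of-ratios. The window counted 1 higher gene, Tal1, with a mean FPKM of at least 5, with voom and without WT replicate 3 (0 to 1 with a library left out), and 1 lower, Artn, when widened to 3 Mb. Over all genes, 661 were higher and 403 lower as deposited, with 62 to 736 higher and 111 to 395 lower when a library was left out, the lowest without KO replicate 2. Without a filter there were 267 and 246, with median-of-ratios 219 higher and 449 lower, and with TPM 777 higher and 134 lower. The cause of these changes was not tested. Deviations from the group mean correlated at -0.10, 0.01 and 0.26 for equal replicate numbers, and at -0.19 to 0.18 for unequal numbers. These few values cannot settle whether the libraries were paired. With the replicate block 686 genes were higher and 386 lower, and the window count stayed at 0. Slc9a3r1, Rrm2 and Dck then passed (limma, adjusted p = 0.0253, 0.0204 and 0.0159). So did 2 of 5 stem cell, 1 of 6 endothelial and 12 of 13 megakaryocyte markers, each higher. Depth limits what can be read of Foxd2, Foxd2os, Cyp4x1os and Pik3r3.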
